A study of Mus musculus with 16 samples.

Results

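The 9 genes described here encode the core of the transforming growth factor beta (TGF-β) pathway: the ligands *Tgfb1*, *Tgfb2* and *Tgfb3*, the receptors *Tgfbr1*, *Tgfbr2* and *Tgfbr3*, and the intracellular mediators *Smad2*, *Smad3* and *Smad7*. They were taken by gene symbol, and the same Ensembl identifiers were read from a table of 54393 genes with estimated counts and a table of 53354 genes with TPM, transcript abundance normalized for length and depth. The list was set by name and not by a threshold on measured values, though with earlier results of these data known. Poly(A) RNA was sequenced from mIMCD3 cells, an epithelial line established from the kidney inner medulla of an SV40 T-antigen transgenic mouse. The line is described as one of inner medullary collecting duct. The cells were wild type and were kept for 10 days on permeable filters in a medium with serum, insulin, hydrocortisone, epidermal growth factor, gentamicin and amphotericin B, which all groups received. They were then given doxycycline (DOX, 2 µg/mL) or its vehicle DMSO, with a daily change of medium, for 3 or 6 days. This gave 4 groups of 4 libraries: DMSO for 3 days, DOX for 3 days, DMSO for 6 days and DOX for 6 days. A single immortalized line was studied, and no source states that the 4 replicates were separate experiments, so p-values measure the spread between these libraries, which may be technical.

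TGF-β is secreted in a latent form and has to be released before it can bind. Released ligand brings together the type II receptor (*Tgfbr2*) and the type I receptor (*Tgfbr1*). The type I receptor then phosphorylates SMAD2 and SMAD3, which enter the nucleus with SMAD4 and change transcription. The product of *Tgfbr3*, betaglycan, is a co-receptor that presents ligand, and SMAD7 is a feedback inhibitor that acts at the type I receptor. In kidney tubules the pathway is known for growth arrest, matrix production and fibrosis. RNA levels do not show how much ligand is active or how much SMAD is phosphorylated.

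Total counts per library ran from 16933343 to 23960860. Levels between libraries are given as CPM, counts scaled to library size by TMM. A detection floor of 3 counts equalled 0.123 to 0.184 CPM, covering counting error only. Replicate 1 of DOX at 3 days and replicate 1 of DMSO at 6 days stood furthest from their own groups, with median absolute deviations of 0.171 and 0.159 in log2 CPM, against 0.065 to 0.123 in the other 14 libraries. Results that rest on them are given with and without them. All 6 renal epithelial markers were above 1 TPM on average in DMSO. Only 2 of 8 inner medullary collecting duct markers reached 1 TPM, and the highest averaged 2.83 TPM in DMSO. *Aqp4*, *Scnn1b* and *Scnn1g* were under 0.1 TPM, so the labelled segment was barely visible in its markers. Of 9 fibroblast or mesenchymal markers 2 reached 1 TPM, and *Col1a2*, *Col3a1*, *Pdgfra*, *Pdgfrb* and *Acta2* were under 0.1 TPM.

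In the GRCm38 build, *Tgfb1* lies at chr7:25687002-25705077, *Tgfb2* at chr1:186622792-186705989 and *Tgfb3* at chr12:86056745-86079041. The receptor genes lie at chr4:47353222-47414931 (*Tgfbr1*), chr9:116084293-116175360 (*Tgfbr2*) and chr5:107106570-107289629 (*Tgfbr3*). The SMAD genes lie at chr18:76241580-76310963 (*Smad2*), chr9:63646767-63757994 (*Smad3*) and chr18:75367529-75395935 (*Smad7*). All are protein-coding. The way salmon treated strand is not given in the sources used here, so values of genes that overlap another gene are uncertain. These are *Tgfb2*, which an antisense RNA and a snoRNA gene overlap, *Tgfb3*, whose 3′ end overlaps *Ttll5* on the opposite strand, and *Tgfbr3*, which contains 3 small genes on its own strand and a pseudogene on the other.

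All 9 genes were detected, and their levels, compared in TPM because TPM is divided by transcript length, ran from well expressed to scarce. Over the 8 DMSO-treated libraries *Smad2* was the most abundant at 36.6 ± 2.46 TPM (SD, n = 8), followed by *Tgfb1* at 30.1 ± 3.20. *Smad3* at 23.0 ± 2.21 TPM, *Tgfbr2* at 18.9 ± 1.16 and *Smad7* at 17.7 ± 1.86 formed a middle group. *Tgfbr1* stood at 7.70 ± 0.894 TPM and *Tgfbr3* at 5.79 ± 0.657. *Tgfb2* and *Tgfb3* were scarce, at 0.954 ± 0.320 and 0.506 ± 0.142 TPM. The ranges of neighbours in this order overlapped for *Smad2* and *Tgfb1*, *Smad3* and *Tgfbr2*, *Tgfbr2* and *Smad7*, *Tgfbr1* and *Tgfbr3*, and *Tgfb2* and *Tgfb3*. Within each library the order was nevertheless kept in 8 of 8 for every pair of neighbours except *Tgfbr2* and *Smad7*, where it was kept in 6.

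**Figure D1:**
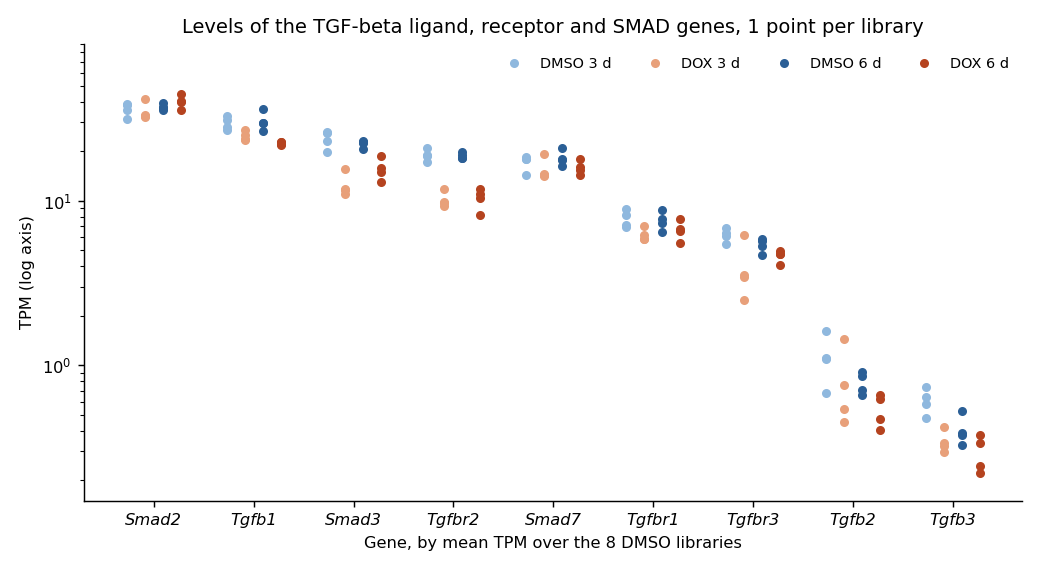
TPM (log axis) of the 9 genes in each of the 16 libraries, ordered by their mean over the 8 DMSO libraries, with colours for the 4 groups. *Smad2* and *Tgfb1* stand highest, and *Tgfb2* and *Tgfb3* lie near or under 1 TPM. The DOX points of *Smad3*, *Tgfbr2* and *Tgfb1* sit below their DMSO points at both times, for *Tgfb1* at 3 days by a narrow margin.

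The ligand RNA of these cells was thus almost entirely *Tgfb1*. Its share of the summed TPM of the 3 ligand genes was 94.5% ± 1.57 in DMSO at 3 days, 95.6% ± 1.25 in DOX at 3 days, 96.2% ± 0.253 in DMSO at 6 days and 96.4% ± 0.483 in DOX at 6 days (SD, n = 4 each). The *Tgfb2* share was between 1.73% and 5.30% in single libraries and the *Tgfb3* share between 0.929% and 2.13%. DOX and DMSO libraries overlapped at both times in all 3 shares.

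DOX was compared with DMSO at each time to ask what the antibiotic, used as an inducer of transgenes, does to these cells. The culture methods name no doxycycline-inducible gene in them. Among the 9 genes, *Tgfbr2*, *Tgfbr3* and *Smad3* fell at 3 days, and *Tgfbr2* and *Smad3* fell at 6 days. None rose at either time. A gene is referred to as called when a change beyond 1.2-fold had an adjusted p under 0.05 by edgeR's glmTreat, and of all 13234 tested genes this held for 12.5% at 3 days and for 21.6% at 6 days. The genes called lower made up 7.22% and 11.6%. The 3 of 9 genes called at 3 days (33.3%) stood above the 12.5%, while the 2 of 9 at 6 days (22.2%) were close to the 21.6%. *Tgfbr2* and *Smad3* were lower at both times (2 of 9), as were 5.36% of all genes, and 8.73% were called at both times in either direction. The 4 DOX and 4 DMSO libraries did not overlap in CPM for 3 of the 9 genes at 3 days (*Tgfbr2*, *Tgfbr3*, *Smad3*), all lower, and for 4 at 6 days (*Tgfb1*, *Tgfbr2*, *Smad3*, *Smad7*), all lower. Over all genes this held for 38.6% and 43%, and in the lower direction for 19.8% and 20.9%. The fitted log2 fold change was below 0 for 8 of the 9 genes at each time, with a median of -0.24 at 3 days and -0.26 at 6 days against 0.0031 and -0.00064 over all tested genes.

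Several marker lists moved with DOX too. Their sums are in TPM, which gave a lower baseline for DOX, as described below. The summed TPM of the 6 renal epithelial markers ran from 1806 to 1942 in DMSO and from 1281 to 1553 in DOX at 3 days, and from 1934 to 2147 and from 1335 to 1476 at 6 days. The 8 collecting duct markers summed to 4.15 to 5.77 TPM in DMSO and 1.54 to 3.22 in DOX at 3 days, and to 3.63 to 5.76 and 1.97 to 3.35 at 6 days. The 9 mesenchymal markers overlapped between the treatments, at 5.81 to 11.4 TPM in DMSO and 7.02 to 9.43 in DOX at 3 days and at 7.12 to 9.44 and 7.68 to 10.9 at 6 days. The 4 macrophage markers summed to 24.8 to 32.5 TPM in DMSO and 10.7 to 16.5 in DOX at 3 days, and to 28.4 to 31.5 and 15.2 to 16.6 at 6 days, with *Adgre1* under 0.1. Only 2 of these 4 reached 1 TPM on average in DMSO. The highest of them averaged 21.6 TPM and made up most of the sum, so it does not show macrophages. In the renal epithelial list the highest gene averaged 889 TPM in DMSO. The 4 endothelial markers summed to at most 1.26 TPM in any library, with *Cdh5* and *Tek* under 0.1. The part of these shifts in the results was not tested, and in bulk RNA fewer cells of a kind and less RNA per cell cannot be told apart.

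**Figure D2:**
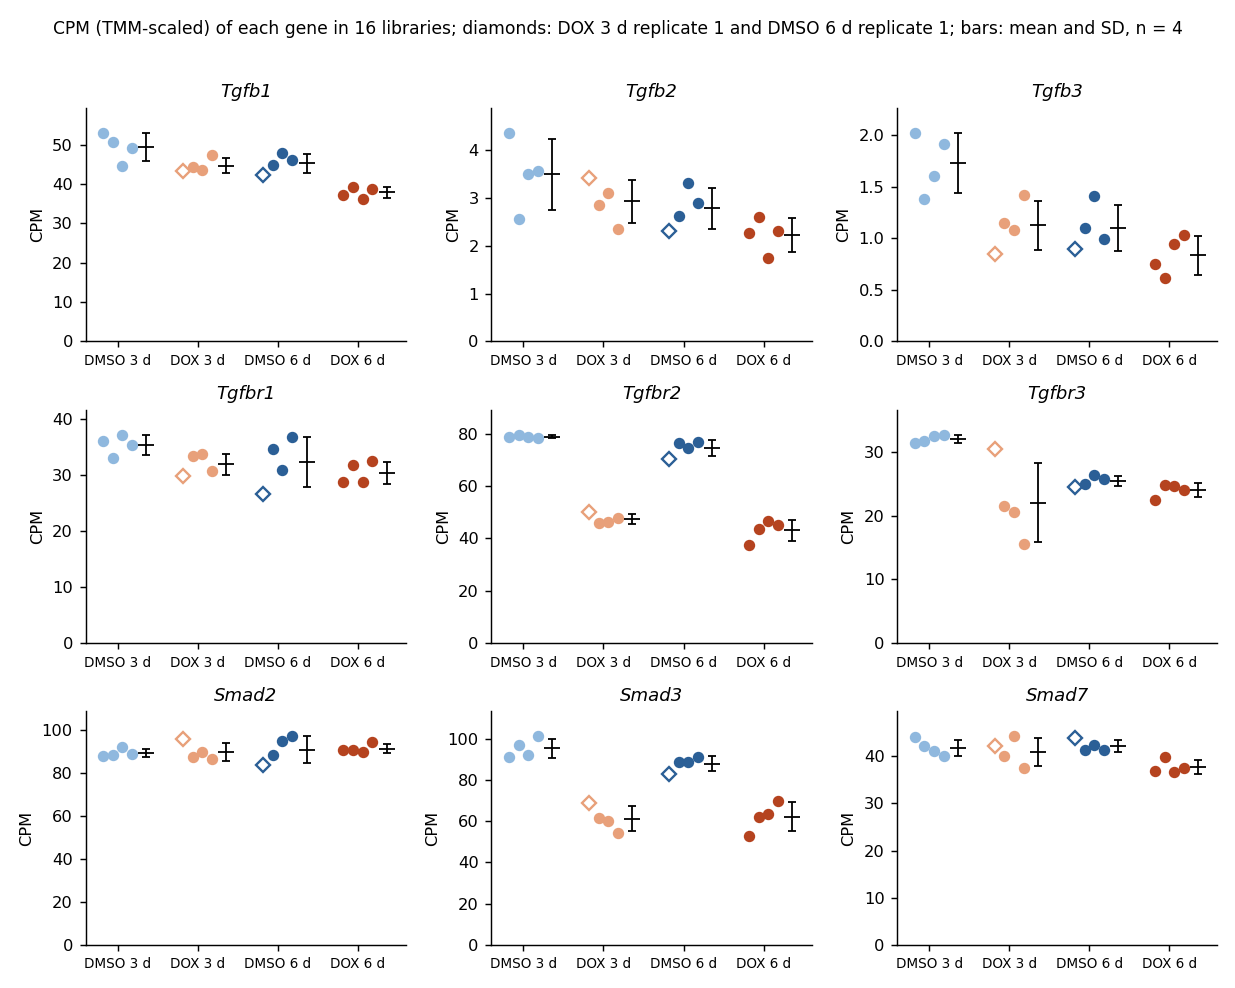
CPM of each gene in the 16 libraries, 1 panel per gene with the axis starting at 0; bars show the mean and SD of 4 libraries, and open diamonds mark the 2 libraries furthest from their groups. *Tgfbr2* and *Smad3* separate DOX from DMSO at both times, *Smad2* overlaps at both, and the diamond of *Tgfbr3* at 3 days lies just under the DMSO points.

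*Tgfbr2*, the type II receptor that binds ligand first, had the steadiest fall of the 9. In DMSO at 3 days its level was 78.8, 79.6, 78.9 and 78.4 CPM in replicates 1 to 4, and in DOX 50.0, 45.7, 46.2 and 47.9 CPM. At 6 days it was 70.3, 76.5, 74.7 and 76.9 CPM in DMSO and 37.5, 43.6, 46.6 and 45.1 in DOX. The lowest DMSO library stood well above the highest DOX library at both times. *Tgfbr2* fell by 39.9% at 3 days (log2 fold change -0.73, SE 0.061, adjusted p = 8.92e-07) and fell by 42.1% at 6 days (-0.79, SE 0.061, adjusted p = 7.52e-08). The difference between the 2 effects was -0.054 in log2 (95% CI -0.23 to 0.12, adjusted p = 0.711), and it was larger and called with the length and GC correction (-0.22, adjusted p = 0.0423; -0.25 and 0.0176 without replicate 1 of DOX at 3 days). Without the DOX library that stood apart, the change at 3 days was -0.76 in log2, and without the DMSO library that stood apart the change at 6 days was -0.82.

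*Smad3*, the mediator that binds DNA directly, fell at both times. Its level was 91.3, 97.1, 92.0 and 101 CPM in DMSO and 69.0, 61.8, 60.1 and 54.4 CPM in DOX at 3 days. At 6 days it was 82.7, 88.9, 89.0 and 91.3 CPM in DMSO and 52.8, 62.3, 63.5 and 70.1 CPM in DOX. The groups did not overlap at either time, and the DOX libraries were more widely spread than those of *Tgfbr2*. *Smad3* fell by 35.8% at 3 days (log2 fold change -0.64, SE 0.076, adjusted p = 0.000173) and fell by 29.3% at 6 days (-0.50, SE 0.076, adjusted p = 0.00365). The effects of the 2 times differed by 0.14 in log2 (95% CI -0.084 to 0.36, adjusted p = 0.399). In limma's test on log2(TPM + 1) the 6-day change was of the same size (-0.50) but no longer called (adjusted p = 0.212).

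*Smad2*, the other receptor-activated mediator, did not move with *Smad3*. Its level was between 86.6 and 97.2 CPM in all libraries but the lowest, at 83.8 CPM in replicate 1 of DMSO at 6 days. DOX and DMSO overlapped at both times. The log2 fold change was 0.012 at 3 days (95% CI -0.098 to 0.12, adjusted p = 1.0) and 0.0073 at 6 days (95% CI -0.10 to 0.12, adjusted p = 1.0), and its sign turned under other settings. Both intervals lie within 1.2-fold.

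*Smad7*, the inhibitory SMAD and itself a target of the pathway, was not called at either time. It ran from 40.1 to 44.0 CPM in DMSO and from 37.4 to 44.2 in DOX at 3 days, which overlapped. At 6 days it ran from 41.2 to 43.8 CPM in DMSO and from 36.7 to 39.8 in DOX, without overlap. The log2 fold change was -0.030 at 3 days (95% CI -0.15 to 0.092, adjusted p = 1.0), where its sign turned under the length and GC correction, and -0.16 at 6 days (95% CI -0.28 to -0.037, adjusted p = 1.0). Tested against no change instead of a 1.2-fold change, the 6-day value was called (adjusted p = 0.0285).

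*Tgfbr3*, the co-receptor betaglycan, was lower at 3 days, and its call turned on single libraries and on the method. Its level was 31.4, 31.7, 32.5 and 32.7 CPM in DMSO and 30.5, 21.5, 20.6 and 15.6 CPM in DOX at 3 days. Replicate 1 of DOX, the library that stood apart, lay just under the DMSO range, and in TPM, at 6.22, it lay within it. *Tgfbr3* fell by 31.1% (log2 fold change -0.54, SE 0.12, adjusted p = 0.0361). Without that library the change was -0.74 (adjusted p = 2.63e-05). The call held in 17 of 29 alternatives. It was lost in DESeq2 (adjusted p = 0.268), in limma on either TPM scale and with the length and GC correction over all libraries. Fitting only the 8 libraries of 3 days lost it too. It was also lost when replicate 2, 3 or 4 of either group of 3 days was left out. Among these the highest adjusted p in edgeR was 0.151, without replicate 4 of DOX. At 6 days the levels were 24.6, 25.0, 26.3 and 25.7 CPM in DMSO and 22.4, 24.8, 24.6 and 24.1 CPM in DOX, which overlapped (log2 fold change -0.083, 95% CI -0.33 to 0.17, adjusted p = 1.0). The difference between the effects of the 2 times was 0.45 in log2 (95% CI 0.10 to 0.81, adjusted p = 0.0703). Without replicate 1 of DOX at 3 days it was 0.65 (adjusted p = 0.000330).

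*Tgfbr1*, the type I receptor kinase, was not called. It ran from 33.1 to 37.3 CPM in DMSO and from 29.9 to 33.8 in DOX at 3 days, and from 26.8 to 36.9 and from 28.7 to 32.5 at 6 days. The groups overlapped at both times. The log2 fold change was -0.15 at 3 days (95% CI -0.32 to 0.021, adjusted p = 1.0) and -0.085 at 6 days (95% CI -0.25 to 0.083, adjusted p = 1.0).

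None of the 3 ligand genes was called either. *Tgfb1* ran from 44.5 to 52.9 CPM in DMSO and from 43.2 to 47.4 in DOX at 3 days, which overlapped, and from 42.2 to 47.8 and from 36.2 to 39.1 at 6 days, which did not. Its log2 fold change was -0.14 at 3 days (95% CI -0.27 to -0.017, adjusted p = 1.0) and -0.26 at 6 days (95% CI -0.38 to -0.13, adjusted p = 0.639). Against no change the 6-day value was called (adjusted p = 0.00146), so *Tgfb1* was lower but not shown to be lower by more than 1.2-fold. Its TPM, a scale with a lower baseline for DOX, did not overlap between the groups at either time. At 3 days the margin was narrow (26.9 to 32.8 TPM in DMSO, 23.5 to 26.8 in DOX). *Tgfb2* had 37 to 82 counts a library, and its log2 fold change was -0.24 at 3 days (95% CI -0.61 to 0.13, adjusted p = 0.776) and -0.32 at 6 days (95% CI -0.70 to 0.067, adjusted p = 0.508). *Tgfb3* had only 15 to 44 counts a library, and its log2 fold change was -0.61 at 3 days (95% CI -1.08 to -0.15, adjusted p = 0.148) and -0.40 at 6 days (95% CI -0.90 to 0.095, adjusted p = 0.433). At 6 days the intervals of both ran from 0 past the log2 fold change of *Smad3*, so neither no change nor a fall of that size was excluded. Against no change *Tgfb3* was called at 3 days (adjusted p = 0.0296).

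**Figure D3:**
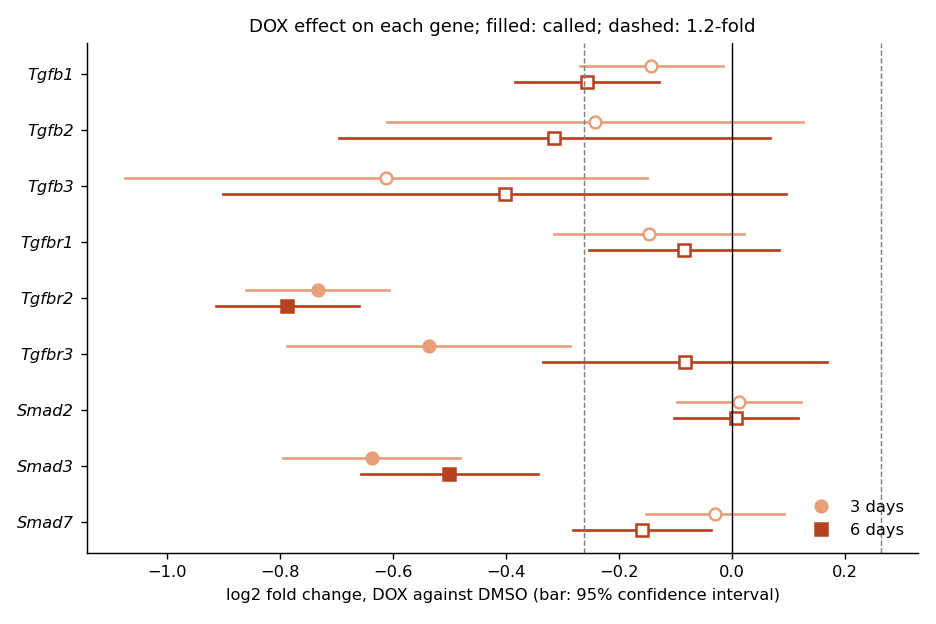
Log2 fold change of DOX against DMSO for each gene at 3 and 6 days with its 95% confidence interval; filled symbols are called, and dashed lines mark 1.2-fold. *Tgfbr2* and *Smad3* are called at both times and *Tgfbr3* at 3 days, while the intervals of *Smad2* lie between the dashed lines.

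TPM gave a lower baseline for DOX than the scaled counts did. The median log2 fold change of all tested genes was -0.15 at 3 days and -0.055 at 6 days on log2(TPM + 1), and 12.4% of the genes called at 3 days were higher, against 42.3% with counts. Changes in TPM are therefore read relative to this shift. On that scale *Tgfbr2* stood at -0.85 and -0.82 and *Smad3* at -0.87 and -0.50, both further down than the median, and *Smad2* stood at -0.046 at 3 days.

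Ratios of TPM within a library do not depend on such scaling between libraries, though they still carry the transcript lengths that TPM is divided by. The ratio of *Tgfbr2* to *Tgfbr1* was 2.46, 2.69, 2.28 and 2.37 in DMSO and 1.66, 1.58, 1.55 and 1.70 in DOX at 3 days. At 6 days it averaged 2.51 ± 0.254 in DMSO and 1.56 ± 0.168 in DOX (SD, n = 4). DOX lay below DMSO in all libraries at both times, so the type II receptor RNA dropped against that of the type I receptor. The ratio of *Smad3* to *Smad2* was 0.628, 0.726, 0.596 and 0.689 in DMSO and 0.378, 0.359, 0.363 and 0.337 in DOX at 3 days. At 6 days it averaged 0.602 ± 0.0190 in DMSO and 0.386 ± 0.0272 in DOX, again without overlap. The ratio of the inhibitor *Smad7* to *Smad3* averaged 0.733 ± 0.121 in DMSO and 1.24 ± 0.0320 in DOX at 3 days, where all DOX libraries were above all DMSO libraries. At 6 days the averages were 0.816 ± 0.0823 and 1.03 ± 0.147, and the groups overlapped in TPM. In the estimated counts of the same libraries they did not, and DOX lay above DMSO by a narrow margin. The closest libraries had 783 *Smad7* and 1478 *Smad3* counts (replicate 1 of DMSO) and 763 and 1427 (replicate 4 of DOX). No test was run on the ratios, which rest on the same RNA as the fold changes.

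**Figure D4:**
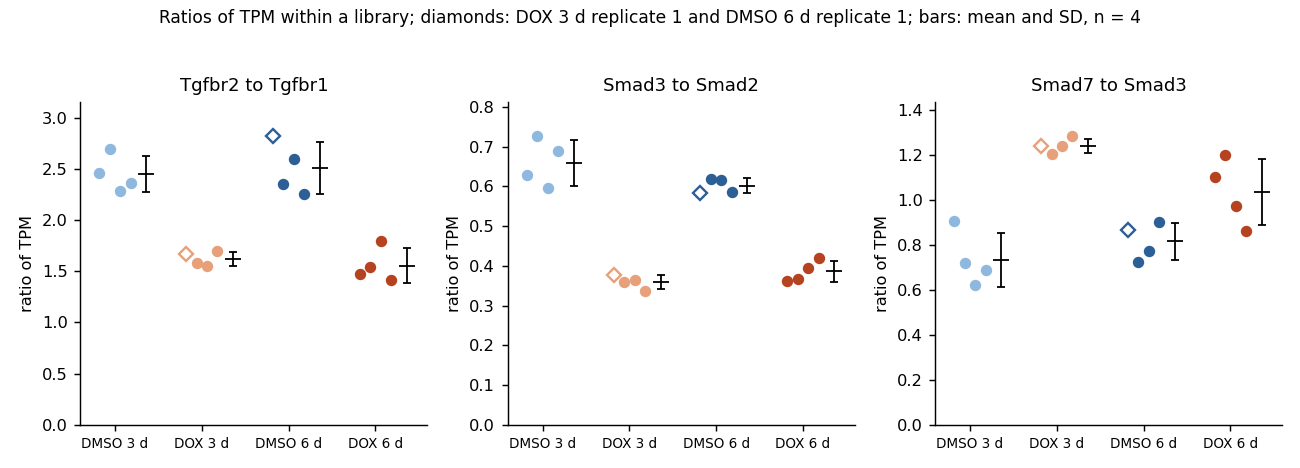
Ratio of TPM between pairs of genes in each library, with the mean and SD of 4 libraries; open diamonds mark the 2 libraries furthest from their groups. DOX lies below DMSO at both times for *Tgfbr2* to *Tgfbr1* and *Smad3* to *Smad2*, and above it at 3 days for *Smad7* to *Smad3*.

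None of the 9 genes was called between the times, though some fitted differences of the scarce ligands were large. Between 6 and 3 days in DMSO, edgeR called 0 of the 9 genes (1 at an unadjusted p under 0.05, *Tgfb3*), DESeq2 called 0, and of all genes 0% were called and 1.3% had an unadjusted p under 0.05. *Tgfbr2*, *Tgfbr3* and *Smad3* had every DMSO library of 6 days below every one of 3 days in CPM, where 5.39% of all genes did and 12.2% did not overlap in either direction. The sizes were -0.081, -0.34 and -0.12 in log2 (adjusted p = 1 for each). *Tgfb3* stood at -0.64 (95% CI -1.10 to -0.18, adjusted p = 1) and *Tgfb2* at -0.32 (95% CI -0.69 to 0.053, adjusted p = 1). Between 6 and 3 days in DOX, edgeR called 0 of the 9 genes (0 at an unadjusted p under 0.05), DESeq2 called 0, and of all genes 3.94% were called and 12.5% had an unadjusted p under 0.05. *Tgfb1*, at -0.24 in log2, was the only one of the 9 whose DOX groups did not overlap between the times, which held for 25.4% of all genes (10.8% lower). In DOX *Tgfb3* stood at -0.43 (95% CI -0.93 to 0.067, adjusted p = 0.704) and *Tgfb2* at -0.39 (95% CI -0.77 to -0.011, adjusted p = 0.624). The DOX effect differed between the times for 0 of the 9 genes in edgeR's quasi-likelihood test (1 at an unadjusted p under 0.05, *Tgfbr3*) and for 0 in DESeq2, whereas of all genes 17% were called, and 31.9% passed an unadjusted p of 0.05. With the length and GC correction *Smad7* (-0.33, adjusted p = 0.0164) was called here beside *Tgfbr2*.

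*Tgfbr2* and *Smad3* were the members called at both times, so the bases before their RefSeq start sites are shown. Each run holds the 250 bases before the start in GRCm38.p6, read on the minus strand of chromosome 9, with matches to the motifs searched in capitals. The *Tgfbr2* bases lie at chr9:116175364-116175613 and those of *Smad3* at chr9:63757995-63758244.
Tgfbr2: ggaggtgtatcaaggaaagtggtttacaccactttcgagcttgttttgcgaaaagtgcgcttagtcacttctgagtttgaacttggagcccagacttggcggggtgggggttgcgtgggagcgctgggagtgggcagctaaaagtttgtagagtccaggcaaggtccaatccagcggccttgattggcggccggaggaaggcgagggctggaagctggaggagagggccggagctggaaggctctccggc
Smad3: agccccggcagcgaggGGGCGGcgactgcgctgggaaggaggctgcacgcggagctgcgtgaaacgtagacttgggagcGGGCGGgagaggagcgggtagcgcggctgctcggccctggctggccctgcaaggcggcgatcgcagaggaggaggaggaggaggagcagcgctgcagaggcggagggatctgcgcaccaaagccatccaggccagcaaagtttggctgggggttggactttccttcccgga
The motifs searched on both strands, in windows that add 50 bases after the start, were TGANTCA (AP-1), CAGACA (SMAD), GGGCGG (SP1), TGACGT (CREB) and GGAATG (TEAD), none of which can contain another. Of 32817 promoter windows 7.81%, 21%, 35.6%, 7.51% and 14.7% held a match. The *Smad3* window held 2 matches to GGGCGG and none of the others, and the *Tgfbr2* window held none of the 5. Windows of 5 of the 9 genes are described here, and *Tgfb3*, *Tgfbr3*, *Smad2* and *Smad7* are left out. *Tgfb1* held 6 matches to GGGCGG, *Tgfb2* held 1 to CAGACA, and of the 2 windows of *Tgfbr1* the first held 2 to GGGCGG and the second 1 to CAGACA. These are matches of letters only, and *Tgfbr2* and *Smad3*, which fell together, shared none of them. The GC content of the whole window was 59.0% for *Tgfbr2* and 67.7% for *Smad3*.

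Over the 16 libraries the genes whose log2 CPM ran most like *Tgfbr2* were *Myo1c*, a motor protein (Pearson r = 0.995), *B4galt6*, a glycosphingolipid enzyme (0.988), *Cxxc5* (0.987), *Errfi1*, a feedback inhibitor of the epidermal growth factor receptor (0.986), and *Trp53inp2* (0.986). Among those most like *Smad3* were *Ube2h*, a ubiquitin-conjugating enzyme (0.980), *Cnksr3* (0.977) and *Capn5*, a calpain protease (0.977). *Tgfbr2* and *Smad3* correlated at 0.957 with each other, while *Smad2* correlated at -0.056 with *Tgfbr2* and at 0.069 with *Smad3*. These values describe the libraries and carry no p, because all points fall into a DMSO and a DOX cluster and share their depth.

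The other genes of the superfamily were described in 8 lists with 111 genes, of which 69 were expressed enough to be tested. At 3 days 3 of the 69 were called higher and 11 lower (20.3%, against 12.5% of all genes), and at 6 days 7 and 15 (31.9%, against 21.6%). The lists overlap in role with the 9 genes and were written with earlier results of these libraries known.

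Genes that release or hold latent ligand moved in both directions. Of 9 tested, 1 was higher and 3 were lower at each time (44.4%, against 12.5% of all genes at 3 days and 21.6% at 6 days). List medians were -0.45 and -0.34 in log2. *Ltbp4*, a latent TGF-β binding protein, rose from 3.37 ± 0.696 to 9.66 ± 1.18 CPM at 3 days (2.82-fold, adjusted p = 8.49e-07) and from 3.43 ± 0.465 to 12.9 ± 2.06 CPM at 6 days (3.76-fold, adjusted p = 4.35e-09). *Thbs1*, thrombospondin-1, which can activate latent ligand, fell from 121 ± 13.8 to 60.1 ± 13.2 CPM at 3 days (adjusted p = 0.000486) and from 113 ± 16.2 to 58.4 ± 5.18 at 6 days (adjusted p = 0.000406). *Itgav*, the integrin chain shared by the receptors that pull on latent ligand, fell to 0.653-fold at 3 days and 0.644-fold at 6 days (adjusted p = 0.00115 and 0.000353), and overlaps 2 other annotated genes. The remaining gene called at both times was lower.

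Among other ligands 10 of 25 were tested. *Bmp3* fell to 0.381-fold at 3 days and 0.405-fold at 6 days (adjusted p = 6.92e-09 and 4.09e-09), and *Bmp2*, a bone morphogenetic protein (BMP), to 0.410-fold and 0.249-fold (adjusted p = 0.0492 and 0.00202). *Bmp2* was 27.4 ± 7.38 CPM in DMSO and 11.1 ± 6.78 in DOX at 3 days, with overlapping libraries. *Bmp6* rose 1.61-fold and 1.75-fold (adjusted p = 0.00410 and 0.000167), though it overlaps *Txndc5*. *Gdf15*, a stress-induced member of the family, stood at 134 ± 11.7 CPM in DMSO and 172 ± 8.01 in DOX at 3 days (adjusted p = 0.255) and rose from 146 ± 28.8 to 257 ± 15.4 CPM at 6 days (1.77-fold, adjusted p = 1.94e-05). The list medians were -0.0086 and 0.029.

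Of 10 other receptors and co-receptors 0 were called at 3 days by edgeR, against 12.5% of all genes. At 6 days 1 was called (10%, against 21.6%). It was *Acvrl1*, a type I receptor best known from endothelium, which rose (1.92 ± 0.245 CPM in DMSO and 2.85 ± 0.121 in DOX, adjusted p = 0.0456). Of the 5 other SMADs, which include the common partner *Smad4*, 0 were called at 3 days and 1 at 6 days (20%, against 21.6% of all genes). This was *Smad9*, a mediator of BMP signals, which fell from 1.42 ± 0.467 to 0.378 ± 0.107 CPM (adjusted p = 0.000359). Medians were -0.16 and -0.042 for the receptors and -0.15 and -0.17 for the SMADs. In the group of secreted antagonists 4 of 12 genes were tested. *Nbl1*, which binds BMPs, fell to 0.638-fold at 3 days and 0.424-fold at 6 days (adjusted p = 0.00610 and 6.56e-07). *Fst*, follistatin, which binds activins, was called at 6 days (0.564-fold, adjusted p = 8.69e-05). The antagonist medians were -0.38 and -0.51.

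Intracellular regulators of the receptors and SMADs stayed close to 0, with medians of -0.012 and 0.056 over 16 tested genes. *Nedd4l*, a ubiquitin ligase that acts on SMADs, fell at 3 days from 106 ± 2.30 to 77.0 ± 8.45 CPM (adjusted p = 0.00556), and stood at 0.804-fold at 6 days (adjusted p = 0.248). *Zfyve9*, the anchor that holds SMAD2 and SMAD3 near the receptor, rose at 6 days from 32.1 ± 2.17 to 47.7 ± 1.96 CPM (adjusted p = 9.71e-05) and was not called at 3 days (1.15-fold, adjusted p = 1.0).

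Target genes of the pathway moved in both directions. Of 11 tested TGF-β targets 1 was higher and 1 lower at 3 days (18.2%, against 12.5% of all genes). At 6 days 2 were higher and 3 lower (45.5%, against 21.6%). The medians were -0.052 and 0.018. *Zeb2*, a repressor of epithelial genes, rose from 6.14 ± 0.449 to 9.43 ± 0.725 CPM at 3 days (adjusted p = 0.00176) and from 5.63 ± 0.207 to 13.7 ± 1.13 at 6 days (adjusted p = 3.19e-09), and shares its locus with an antisense RNA. *Fn1*, fibronectin, was higher in DOX than in DMSO at 6 days (log2 fold change 0.48, adjusted p = 0.0158) and overlapped at 3 days (adjusted p = 1.0). It stood at 239 ± 19.7 CPM in DMSO and 261 ± 45.8 in DOX at 3 days, and at 179 ± 10.2 and 250 ± 12.3 at 6 days. The DMSO mean was thus lower at 6 days than at 3, and the DOX mean did not rise. *Fn1* also overlaps *Apol7d*. *Tsc22d1* fell to 0.743-fold and 0.703-fold (adjusted p = 0.0105 and 0.000280).

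The 4 tested BMP targets, the *Id* genes of inhibitors of basic helix-loop-helix factors, were the most uniform list. At 3 days 3 of 4 were called lower (75%, against 7.22% of all genes). At 6 days 4 of 4 were (100%, against 11.6%). The medians were -0.51 and -1.57. *Id2* fell from 318 ± 35.6 to 221 ± 25.2 CPM at 3 days (adjusted p = 0.0138) and from 368 ± 31.5 to 122 ± 12.8 at 6 days (adjusted p = 3.01e-10). *Id3* fell to 0.710-fold and 0.340-fold (adjusted p = 0.0170 and 1.06e-10), and *Id4*, a scarce RNA, to 0.449-fold and 0.167-fold (adjusted p = 0.000941 and 5.06e-08). *Id1*, named after its values were seen, was not called at 3 days (0.758-fold, adjusted p = 0.0943) and fell at 6 days (0.365-fold, adjusted p = 9.83e-11). Without replicate 1 of DOX at 3 days, 20 of the 69 list genes were called at 3 days in place of 14, while the share of all genes rose from 12.5% to 17.4%.

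**Figure D5:**
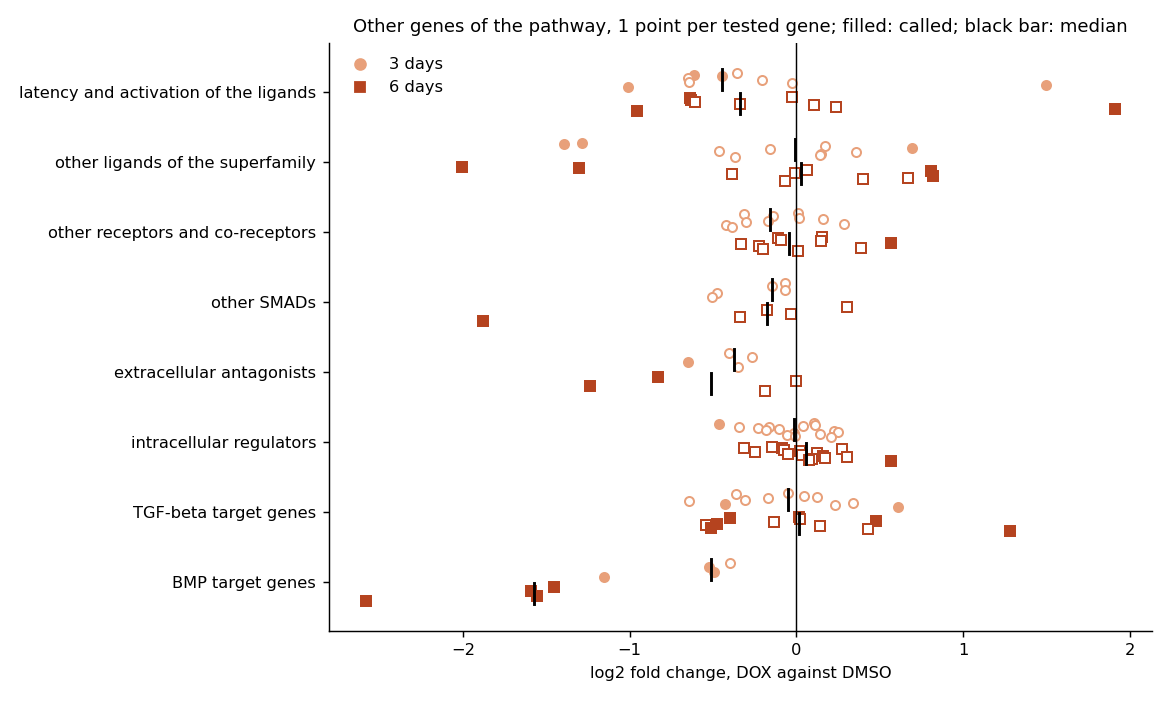
Log2 fold change of DOX against DMSO for the 69 tested genes of the 8 lists, at 3 days (circles) and 6 days (squares); filled symbols are called and black bars are list medians. The BMP targets lie lowest at 6 days with all 4 filled, and most regulators and other receptors lie near 0 with open symbols.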

How the data were processed

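Both tables are the authors'. Reads (2 × 75 bases) were aligned by the authors to GRCm38.p6 with STAR 2.6.0c and quantified with salmon. The deposited estimated counts are per gene, hold fractions and are not normalized; the deposited TPM values are divided by transcript length and sum to 995688 to 998208 a library. All count identifiers were in GENCODE M21. Genes, groups and replicate numbers were matched by identifier and label, and no library was left out.

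Estimated counts were rounded, genes reaching 1 CPM in 4 or more libraries entered the tests (13234 of 54393, all 9 members included), and library sizes were scaled by TMM. A robust quasi-likelihood fit over the 4 groups of 16 libraries was made with edgeR 4.0.16 in R 4.3.3. DOX was compared with DMSO, and 6 with 3 days, by glmTreat at 1.2-fold, following the published threshold, and the difference between DOX effects by glmQLFTest. Tests were two-sided with Benjamini-Hochberg adjustment over all tested genes. SE was taken as the log2 fold change over the square root of the F statistic. Alternatives included DESeq2 1.42.0, limma 3.58.1 on log2(TPM + 1) and log2(TPM + 0.1), other filters, and leaving out each library. A length and GC offset without replicate 1 of DOX at 3 days was added after seeing the data. The scripts were tested on simulated counts.

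The members and lists were chosen with earlier results of these data known. From each list the text names genes called at 3 or 6 days, at most the 3 with the largest changes at each time, and for each member called at both times the 5 genes with the most similar log2 CPM (prior count 2). Some of these genes are not reported here. Promoter sequences are from RefSeq. Gene overlaps came from GENCODE.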

Additional observations from a re-analysis of the deposited data

Results flagged for a closer look

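The levels of the 9 genes were screened in CPM and TPM for a library far from the other 3 of its group by Dixon's test at 95%. Of 72 sets of 4 values 3 were picked out, and chance alone picks out about 1 in 20. In TPM, *Smad2* stood at 41.5 in replicate 1 of DOX at 3 days, against 32.2 to 33.1 in the other 3 libraries. *Smad7* stood at 19.4 TPM in that library, against 14.2 to 14.5. *Smad7* also stood at 14.3 TPM in replicate 3 of DMSO at 3 days, against 17.9 to 18.6. None of these 3 was picked out in CPM, and the cause was not tested.

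By edgeR's test of the difference itself, the DOX effect differed between 6 and 3 days for 13 of the 69 tested list genes (18.8%), 7 upward and 6 downward, close to the 17% of all genes. The 9 of them named in the text were named for large called changes. The fall was larger at 6 days for the *Id* genes, with differences of -1.05 (*Id1*, adjusted p = 3.6e-05), -1.07 (*Id2*), -1.06 (*Id3*) and -1.43 (*Id4*) in log2. It was also larger for *Smad9* (-1.37, adjusted p = 0.0458) and *Nbl1* (-0.59, adjusted p = 0.0245). The rise was larger at 6 days for *Zeb2* (0.67, adjusted p = 0.00227), and the 6-day value was further up for *Gdf15* (0.46, adjusted p = 0.0259) and *Zfyve9* (0.36, adjusted p = 0.0106).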

How the results depend on the processing

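The results were recomputed under 29 alternatives. *Tgfbr2* was called at both times and *Smad3* at 3 days in all 29, with log2 fold changes of -0.90 to -0.54 and -0.87 to -0.73 for *Tgfbr2* and -0.92 to -0.52 for *Smad3*. *Smad3* at 6 days was called in 27 and *Tgfbr3* at 3 days in 17. The 2 calls at 6 days became 1 (*Tgfbr2*) with limma on either TPM scale and 4 with no fold threshold, where 1 member (*Tgfb1*) was also called for 6 against 3 days in DOX. Members whose DOX effect differed between the times numbered 1 (*Tgfbr3*) with no filter beyond 1 count, 2 (*Tgfbr2*, *Smad7*) with the length and GC offset, with or without the replicate block, and 3 with that offset and without replicate 1 of DOX at 3 days. List genes called at 3 days went from 14 to 8 with DESeq2 and 39 with no fold threshold, and at 6 days from 22 to 13 with limma on log2(TPM + 1) and 41 with no threshold. Over all genes, the 1658 calls at 3 days became 1019 with DESeq2, 686 and 887 with limma, and 5982 with no threshold, and the 2856 at 6 days became 1295, 1517 and 6702 with the last 3. Leaving out 1 library gave 2 to 3 members at 3 days, 2 at 6 days, 0 to 1 for the difference, and 10 to 20 and 21 to 23 list genes. The sign of *Smad2* turned at 3 days on log2(TPM + 1) (-0.046) and log2(TPM + 0.1) (-0.048) and at 6 days with CPM of at least 1 in all 16 libraries (-0.0068), and ranged from -0.020 to 0.030 and -0.030 to 0.039 with 1 library left out. *Smad7* at 3 days turned to 0.091 with the length and GC offset, 0.090 with the offset and replicate block, 0.11 with the offset without replicate 1 of DOX, and ranged from -0.068 to 0.010 with 1 library left out. The causes were not tested. Equal replicate numbers did not deviate together (mean correlations -0.096 and -0.12), and the replicate block gave 3 and 2 called members and 1570 and 2767 called genes, keeping the same members called. Depth limits *Tgfb2* and *Tgfb3*.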
